A study of Mus musculus with 6 samples.

Results

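The 9 genes described here mark regulatory T cells, and they were followed in single cells of mouse kidneys that had been left untransplanted, were being rejected, or had been tolerized. The genes are Foxp3, Ikzf2, Il2ra, Tnfrsf4, Tnfrsf18, Tnfrsf9, Icos, Izumo1r, and Areg. They were chosen by symbol among the 28208 genes listed for all 6 kidneys, and all 9 were found. The 2 naive kidneys came from male C57BL/6 WT (B6) mice of 10 to 12 weeks and were not transplanted. The 2 rejecting kidneys were BALB/c kidneys placed in male B6 recipients whose own kidneys had both been removed, with a labelled age of 6 to 7 weeks, and were collected on day 15. The 2 tolerized kidneys had the same donor strain, recipients, age, and day, and their recipients had in addition received BALB/c splenocytes fixed with ethylenecarbodiimide (ECDI), given intravenously 7 days before and 1 day after the transplant. Strain, age, and the genes listed in the count matrices all differed between naive and transplanted kidneys, so that these cannot be told apart in any naive value. Each kidney gave 1 library, so that kidneys were the replicates, with n = 2 in each group.

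Regulatory T cells are CD4 T cells that restrain other immune cells, and in transplanted organs they are studied for their part in tolerance. Foxp3 encodes the transcription factor that fixes this lineage, and Ikzf2 encodes Helios, a zinc finger factor found in many of these cells. Il2ra encodes the alpha chain of the interleukin-2 (IL-2) receptor, through which the cells take up IL-2, and the signal passes through STAT5 to Foxp3 itself. Tnfrsf4 (OX40), Tnfrsf18 (GITR), and Tnfrsf9 (4-1BB) are TNF receptor family members that signal to NF-kappaB when their ligands on antigen-presenting cells are engaged. Icos is a costimulatory receptor of the CD28 family, Izumo1r encodes the surface protein known as folate receptor 4, and Areg encodes amphiregulin, a ligand of the EGF receptor linked with tissue repair. Most of these genes are also switched on in activated T cells that are not regulatory, and only Foxp3 defines the lineage.

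Positions below follow the GENCODE M21 annotation on GRCm38. Foxp3 lies at chrX:7573644-7595245, Ikzf2 at chr1:69531214-69687245, Il2ra at chr2:11642807-11693193, Icos at chr1:60977927-61000320, Izumo1r at chr9:14885814-14903949, and Areg at chr5:91139599-91148432. The 3 receptor genes of the TNF family share a chromosome, with Tnfrsf9 at chr4:150914562-150946102, Tnfrsf4 at chr4:156013843-156016612, and Tnfrsf18 at chr4:156026164-156028895. Tnfrsf4 and Tnfrsf18 are neighbors, and 9551 bases lie between them.

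Stretches of 250 bases before a transcription start were available from RefSeq (GRCm38.p6) for 7 of the 9 genes. The stretches shown are those that hold a searched motif and lie before the start of Foxp3, which defines the lineage, or of Areg or Il2ra, whose log2 fold changes between rejecting and tolerized kidneys were the largest of the 9 in CD4 and in Foxp3-positive CD4 cells. Stretches of Tnfrsf18 (STAT5) and Tnfrsf9 (STAT5, kappaB, and AP-1) also held motifs and are not printed, and those of Tnfrsf4 and Izumo1r held none. Capitals mark the match. The motifs searched on both strands were TTCNNNGAA (STAT5), the 10-base kappaB consensus, TGACGTCA (CRE), and TGANTCA (AP-1), and among 32851 windows of RefSeq starts 7.02%, 4.65%, 1.55%, and 6.75% held them. The Foxp3 stretch, at chrX:7580233-7580482 on the plus strand, precedes 1 of the RefSeq starts of the gene, lies within the gene as annotated, and holds the STAT5 letters. The Il2ra stretch, at chr2:11642542-11642791 on the plus strand, holds the kappaB letters in reverse. The Areg stretch, at chr5:91139349-91139598 on the plus strand, ends just before the gene's first base and holds the CRE letters. A match describes the sequence and shows no binding.
Foxp3: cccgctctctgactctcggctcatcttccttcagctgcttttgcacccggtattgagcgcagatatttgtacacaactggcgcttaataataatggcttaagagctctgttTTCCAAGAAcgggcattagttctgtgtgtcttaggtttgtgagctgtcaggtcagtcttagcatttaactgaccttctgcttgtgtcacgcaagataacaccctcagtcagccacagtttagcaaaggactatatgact
Il2ra: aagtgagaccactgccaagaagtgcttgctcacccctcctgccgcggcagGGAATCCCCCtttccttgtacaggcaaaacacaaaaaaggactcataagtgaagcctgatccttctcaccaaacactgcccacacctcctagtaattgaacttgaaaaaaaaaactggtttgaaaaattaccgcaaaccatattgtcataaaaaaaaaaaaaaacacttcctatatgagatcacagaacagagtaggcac
Areg: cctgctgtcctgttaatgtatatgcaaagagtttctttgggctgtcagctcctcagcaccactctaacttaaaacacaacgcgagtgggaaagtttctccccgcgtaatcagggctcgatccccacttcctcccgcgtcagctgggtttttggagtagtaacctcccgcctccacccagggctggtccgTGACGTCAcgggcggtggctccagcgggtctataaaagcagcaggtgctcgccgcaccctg

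The libraries held between 8532 and 13378 barcodes, and their totals ran from 34874702 UMIs in naive kidney 2 to 96803926 UMIs in tolerized kidney 1. After filters and the removal of called doublets, 45667 cells were used, and 8609 of them were T cell-like. The rejecting kidneys gave 3404 and 2558 of these, the tolerized kidneys 1666 and 908, and the naive kidneys 32 and 41. Their median depth was 1304 and 2711 UMIs under rejection and 4614.5 and 4804 UMIs after tolerization, so that depth per cell moved with the group. A cluster of 2212 shallow T cell-like cells, with a median of 912.5 UMIs, held 1963 cells of rejecting kidney 1. Values that rest on the share of cells with a UMI are therefore given both at full depth and after thinning to 1000 UMIs per cell, and the main values are given without the shallow cluster too. Thinning left out the shallower cells, so that 2203, 2356, 1629, and 881 T cell-like cells remained in rejecting kidneys 1 and 2 and tolerized kidneys 1 and 2, and most of those lost were from rejecting kidney 1. Any 2 transplanted kidneys shared at most 35 barcodes and the naive kidneys shared 111. Macrophage markers in the T cell-like cells moved with the group as well: all 10 markers, or 9 in tolerized kidney 2, were detected, and their summed level was 208 to 996 raw CPM in rejecting and 79.0 to 151 in tolerized kidneys. Raw CPM are UMIs of a gene per 1000000 UMIs of the same cells in the same kidney, and CPM alone stands for values after TMM normalization.

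T cell-like cells were sorted by their UMIs into CD4 cells (Cd4 counted, Cd8a and Cd8b1 not), CD8 cells (Cd8a or Cd8b1 counted, Cd4 not), cells with both, and cells with neither. In the order rejecting kidney 1, rejecting kidney 2, tolerized kidney 1, and tolerized kidney 2, used throughout, there were 300, 260, 246, and 167 CD4 cells and 2201, 1787, 1072, and 440 CD8 cells. CD4 cells made up 8.81% and 10.2% of T cell-like cells under rejection, against 14.8% and 18.4% after tolerization. After thinning they were 5.99%, 5.52%, 6.08%, and 6.70%, a smaller gap between the groups, over fewer cells. Cells with neither marker numbered 852, 479, 313, and 286, and they include cells whose Cd4 RNA was not captured.

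Most UMIs of each of the 9 genes were counted in T cells. Of all UMIs in the 4 transplanted kidneys, T cell-like cells held 96.2% for Izumo1r, 95.9% for Foxp3, 94.5% for Icos, 93.6% for Tnfrsf4, 91.1% for Tnfrsf9, 90.9% for Areg, 86.6% for Tnfrsf18, 81.4% for Ikzf2, and 79.4% for Il2ra. Which genes reached beyond the T cells, and where, differed from gene to gene.

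**Figure D1:**
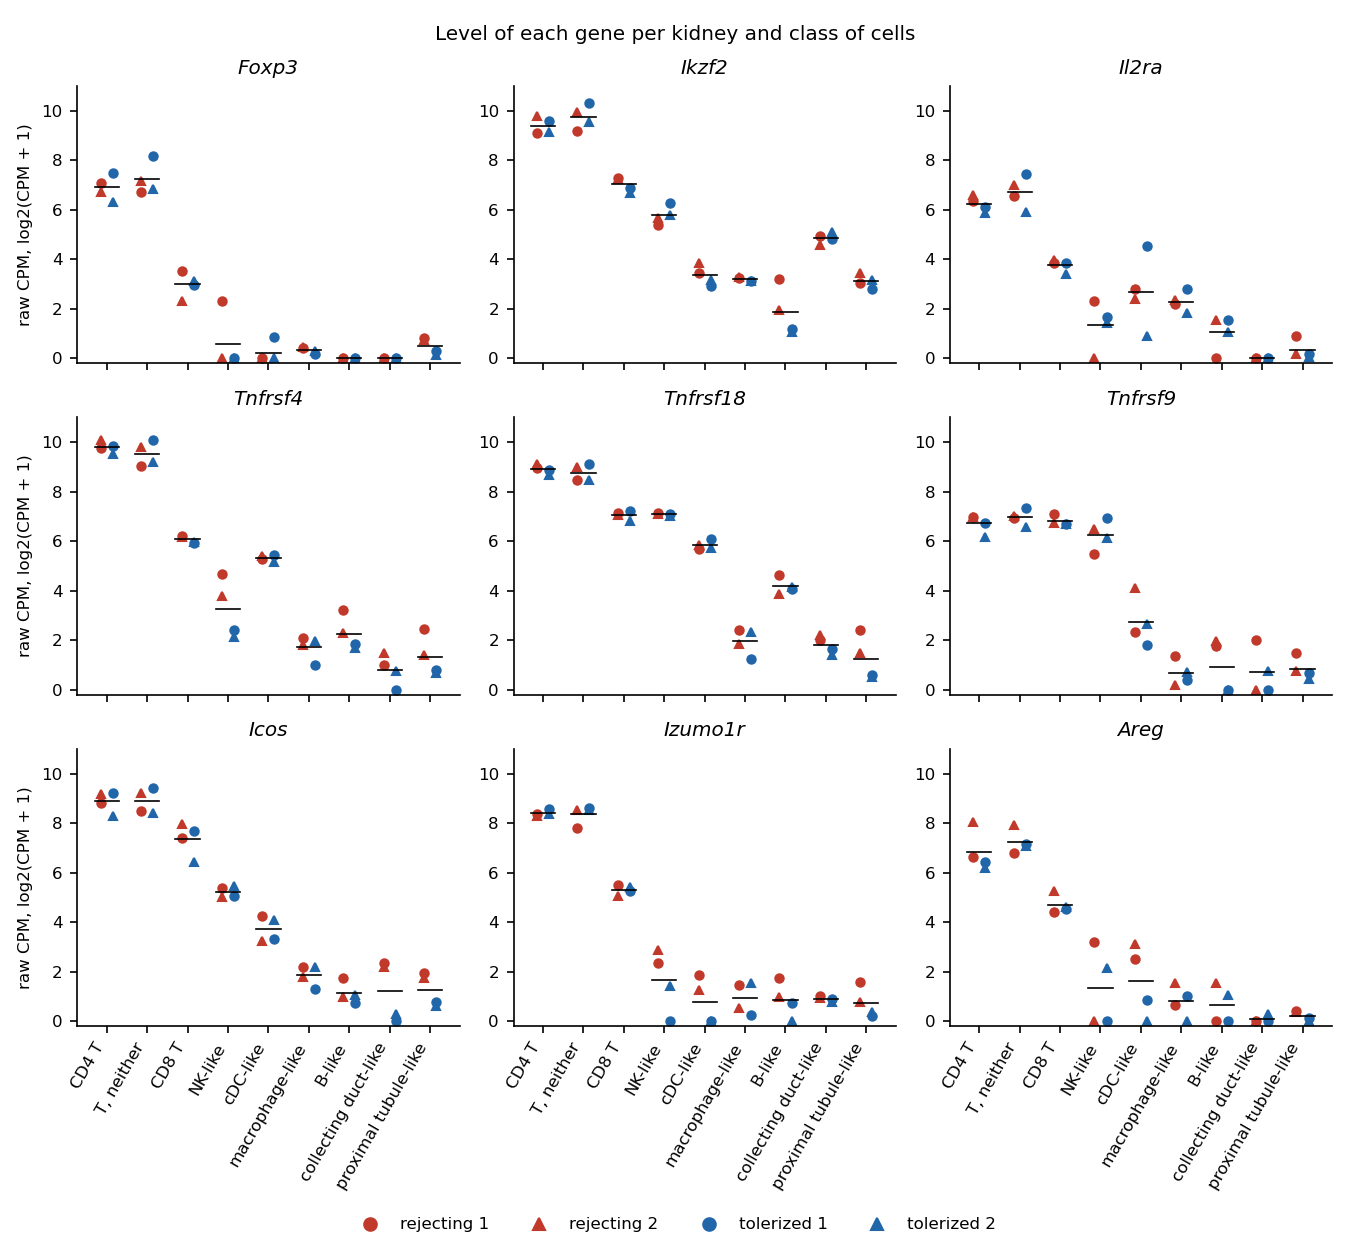
Raw CPM of each gene on a log2(CPM + 1) axis in 9 classes of cells, with 1 point per transplanted kidney and a line at the mean of the 4. Foxp3 and Izumo1r fall to near 0 in the classes outside T cells, the values of Tnfrsf9 overlap between CD8 and CD4 T cells, Tnfrsf18 stays up in NK-like and conventional DC-like cells, and Ikzf2 rises again in collecting duct-like cells.

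Foxp3 stood at 136, 103, 178, and 78.5 raw CPM in CD4 cells. The same gene stood at 105, 142, 287, and 112 raw CPM in cells with neither marker and at 10.7, 3.99, 6.66, and 7.74 in CD8 cells. CD4 cells and those with neither marker overlapped, and every CD8 value lay below all of them. In proximal tubule-like cells, which should lack the gene, Foxp3 stood between 0.0815 and 0.783 raw CPM, and 0.260% of these cells had a UMI at full depth, or 0.0296% to 0.296% by kidney after thinning. No Foxp3 UMI was counted in 1480 B cell-like cells or in 620 collecting duct-like cells of the transplanted kidneys, and 1 was counted in 533 NK-like cells. In the naive kidneys no T cell-like cell had a Foxp3 UMI. With 65268 and 97088 UMIs in these cells, a limit set at 3 UMIs corresponds to 46.0 and 30.9 raw CPM. All T cell-like cells of the transplanted kidneys stood at 42.2, 32.1, 76.3, and 46.1 raw CPM. The limit of naive kidney 1 lies above both rejecting values. That of naive kidney 2 lies below all 4 values but close to the 32.1 of rejecting kidney 2. A naive level below that of the rejecting kidneys is thus not shown. Intervals and limits of this kind cover counting error only.

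Izumo1r was also close to 0 outside T cells. It stood at 333, 308, 373, and 325 raw CPM in CD4 cells and at 43.6, 32.5, 37.6, and 41.9 in CD8 cells. The highest mean outside T cells, in NK-like cells, was 3.0 ± 2.74 raw CPM (SD, n = 4). Areg stood at 97.3, 261, 84.5, and 71.3 raw CPM in CD4 cells, with rejecting kidney 2 far above the other 3, and at 20.2, 36.7, 21.9, and 23.6 in CD8 cells. Outside T cells Areg was highest in plasmacytoid DC-like cells, at 28.9 ± 12.3 raw CPM from 22 UMIs, within the range of the CD8 cells.

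Il2ra stood at 80.9, 94.5, 67.9, and 57.9 raw CPM in CD4 cells and at 13.5, 14.8, 13.3, and 9.5 in CD8 cells. It had a second holder in the macrophage-like cells, whose level was only 4.03 ± 1.40 raw CPM but which were numerous, and in conventional DC-like cells it stood at 8.35 ± 9.54, with 22.3 in tolerized kidney 1. Ikzf2 stood at 550, 881, 770, and 560 raw CPM in CD4 cells and at 153, 152, 118, and 100 in CD8 cells. Ikzf2 was also counted in 30.8% of collecting duct-like cells at full depth, and in 2.56% to 4.90% of them by kidney after thinning, at 28.5 ± 4.40 raw CPM, and in distal convoluted tubule-like cells, at 20.5 ± 5.06. The naive kidneys, with 101 and 85 Ikzf2 UMIs in collecting duct-like cells, showed the gene there too, so its tubular signal was not limited to transplanted kidneys.

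The 3 receptors of the TNF family differed most in where they were found. Tnfrsf4 stood at 865, 1090, 912, and 743 raw CPM in CD4 cells, at 73.3, 71.7, 59.8, and 62.3 in CD8 cells, and at 39.2 ± 3.37 in conventional DC-like cells. Tnfrsf18 stood at 491, 554, 467, and 409 raw CPM in CD4 cells and at 139, 131, 147, and 111 in CD8 cells. Its level in NK-like cells, 135 ± 5.52 raw CPM, lay within the range of the CD8 cells, and mast cell/basophil-like cells followed at 111 ± 32.4. Tnfrsf9 stood at 127, 126, 107, and 70.3 raw CPM in CD4 cells, at 136, 104, 103, and 103 in CD8 cells, and at 80.5 ± 31.8 in NK-like cells, and all these ranges overlapped. Icos stood at 453, 581, 590, and 312 raw CPM in CD4 cells and at 169, 251, 202, and 84.8 in CD8 cells, and NK-like cells followed at 36.6 ± 5.64.

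The difference between CD4 and CD8 T cells was tested within kidneys, using a kidney term in the quasi-likelihood test of edgeR and Benjamini-Hochberg adjustment across every tested gene, which gives the false discovery rate (FDR). Of 9084 genes, 23.2% passed an FDR of 0.05, and 11.8% passed it with the higher level in CD4 cells. Of the 9 genes, 8 passed it and were higher in CD4 cells, each in 4 of 4 kidneys. For Foxp3 the log2 fold change was 4.02 (SE 0.16, FDR 2.36e-27), for Tnfrsf4 3.62 (SE 0.10), and for Izumo1r 2.99 (SE 0.10). For Il2ra it was 2.41 (SE 0.15), for Ikzf2 2.26 (SE 0.10), for Areg 2.12 (SE 0.13), for Tnfrsf18 1.73 (SE 0.09), and for Icos 1.36 (SE 0.10, FDR 8.63e-17). All 8 calls held in each of 14 alternative analyses. The SEs and FDRs of the edgeR tests, here and below, rest largely on a variance pooled over genes. They do not by themselves measure how far a gene spread between kidneys. Tnfrsf9 did not pass: its log2 fold change was -0.19 (95% interval -0.40 to 0.02, FDR 0.215), and it was higher in CD4 cells in 1 of 4 kidneys.

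The genes that work around the 9 were taken from lists, and the same fit gave their counts. Of 35 other regulatory T cell genes tested, 24 were higher in CD4 cells and 7 lower, with a median log2 fold change of 1.08 against -0.02 over all genes. The former included Lrrc32, which holds latent TGF-beta at the surface (4.51), the cytokine gene Il10 (3.91), the skin-homing chemokine receptors Ccr4 (3.85) and Ccr8 (3.56), and the inhibitory receptor Ctla4 (1.24). The lower genes included Itgae (-0.62) and Lag3 (-0.39). Of 12 genes of IL-2 signalling, 6 were higher, among them Stat5a (1.38) and the feedback inhibitor Socs2 (1.28), and 3 were lower, among them the survival gene Bcl2 (-2.17) and the receptor beta chain Il2rb (-0.61). Of 12 genes of TNF receptor signalling, 9 were higher and none lower, led by the NF-kappaB inhibitor Nfkbia (1.56) and the NF-kappaB subunit Relb (1.31). Of 6 genes of naive T cells, 4 were higher, with the transcription factors Lef1 (1.46) and Tcf7 (1.17) among them.

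Among the partners of the 9 genes, Tnfsf9 and Icosl are given here in conventional DC-like cells and Egfr in proximal tubule-like cells. Their levels are not compared with those of other classes, and the ligands of Tnfrsf4 and Tnfrsf18 are not given. Tnfsf9, the ligand of Tnfrsf9, stood at 43.3, 84.0, 85.1, and 42.8 raw CPM in conventional DC-like cells, and Icosl, the ligand of Icos, at 70.0, 33.2, 48.7, and 64.7. Both ranges overlapped between rejecting and tolerized kidneys. Egfr, the receptor for Areg, stood at 39.5, 27.4, 28.9, and 24.7 raw CPM in proximal tubule-like cells. Il2, which encodes the cytokine bound through Il2ra, gave 67, 64, 20, and 28 UMIs in all T cell-like cells, with 5, 5, 2, and 9 of them in CD4 cells.

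CD4 cells were next divided by whether they had a Foxp3 UMI. The share with one was 17.7% (53 of 300) and 16.5% (43 of 260) under rejection, against 37.4% (92 of 246) and 23.4% (39 of 167) after tolerization. The exact binomial 95% intervals were 13.5% to 22.5%, 12.2% to 21.6%, 31.3% to 43.8%, and 17.2% to 30.5%. The tolerized kidneys were thus both higher at full depth, by 13.3 percentage points between the means, with an exact two-sided permutation p of 0.333, which is the smallest that 2 against 2 kidneys can give. Without tolerized kidney 1 the difference was 6.25 points, and without tolerized kidney 2 it was 20.3 points. Tolerized kidney 1 also stood apart in Ccr7, a gene of the naive T cell list. Ccr7 stood at 342, 264, 0.66, and 456 CPM in B cell-like cells. In conventional DC-like cells it stood at 318, 287, 4.21, and 318 CPM. Whether this bears on the Foxp3 values of that kidney was not tested. After thinning to 1000 UMIs, which kept 243, 236, 245, and 167 CD4 cells, the shares were 7.82%, 6.78%, 16.7%, and 6.59%, and the groups overlapped, with tolerized kidney 1 alone above the rest. Without the shallow cluster they were 24.8%, 16.1%, 37.9%, and 23.6%, and the groups overlapped again. Over all T cell-like cells the share was 4.64%, 6.02%, 16.4%, and 14.4% at full depth and 3.59%, 3.06%, 7.67%, and 4.20% after thinning.

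**Figure D2:**
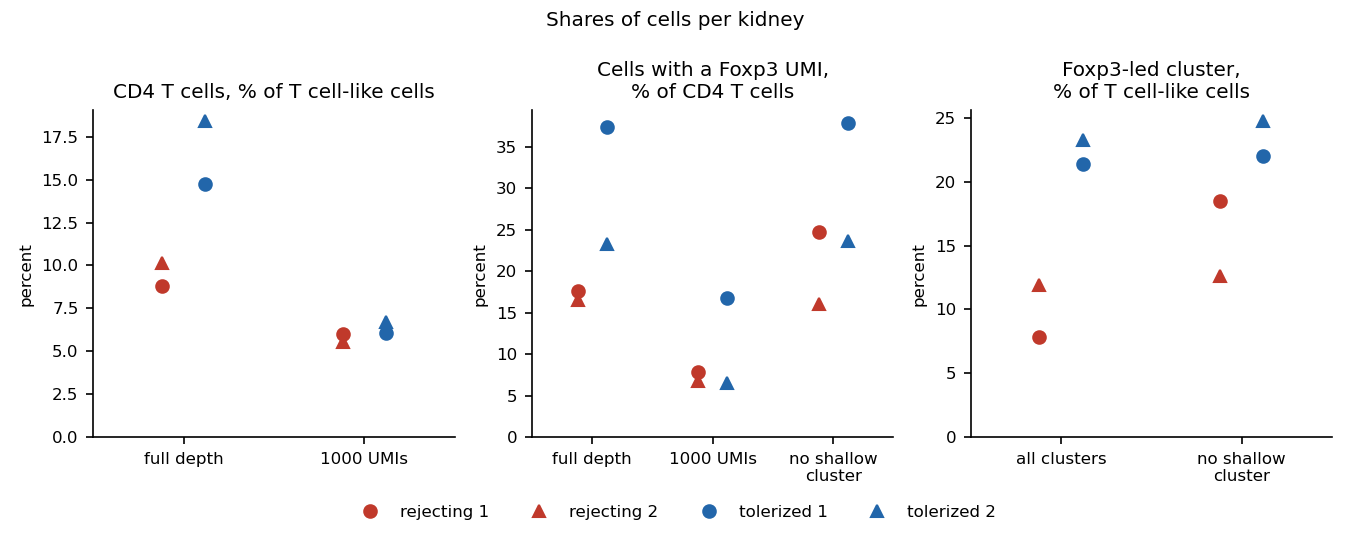
Shares of cells in percent for each transplanted kidney: CD4 cells among T cell-like cells, CD4 cells with a Foxp3 UMI, and the Foxp3-led cluster among T cell-like cells, at full depth and after thinning or without the shallow cluster. The tolerized kidneys lie above the rejecting ones at full depth. For CD4 cells with a Foxp3 UMI the groups overlap once cells are thinned to 1000 UMIs or the shallow cluster is left out. For the Foxp3-led cluster they stay apart without the shallow cluster.

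A cluster of T cell-like cells built without the 9 genes, their pathway lists, or Cd4, Cd8a, and Cd8b1 was nevertheless led by Foxp3, Izumo1r, Neb, Tnfrsf4, Ikzf2, Il2ra, Ctla4, Tnfrsf18, Icos, and Cd5. It held 1138 cells and none from the naive kidneys. By kidney it held 266, 305, 356, and 211 cells, or 7.81% and 11.9% of T cell-like cells under rejection, against 21.4% and 23.2% after tolerization. Without the shallow cluster in the denominator its share was 18.5%, 12.7%, 22.0%, and 24.7%. The tolerized kidneys were higher in both counts, and the exact permutation p was again 0.333. The cluster held 85.4%, 80.8%, 87.3%, and 86.8% of the Foxp3 UMIs of all T cell-like cells, and 49.6%, 39.7%, 66.9%, and 54.0% of its own cells had a Foxp3 UMI. After thinning, 26.3%, 22.0%, 32.6%, and 15.2% had one, and the groups overlapped.

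The other genes separated this cluster from the rest to differing degrees. As the mean raw CPM of the 4 transplanted kidneys, Foxp3 stood at 309 in this cluster and at 5.12 in a cluster led by Tnfsf8, Tnfsf11, and Nrn1, in which Cd4 was also a leading gene. By their UMIs 32.9% to 53.8% of the cells of this second cluster were CD4 and 26.9% to 39.1% were CD8, depending on the kidney. In that second cluster Tnfrsf4 still stood at 623 against 1311, Icos at 347 against 707, Tnfrsf18 at 309 against 700, and Tnfrsf9 at 125 against 204. These receptors were thus also present in a mixed cluster with little Foxp3, whereas Il2ra, at 24.9 against 185, and Ikzf2, at 234 against 1431, were further apart. The shallow cluster did not show this contrast. As ratios to the Foxp3-led cluster, Il2ra (86.6) and Ikzf2 (589) were closer there than Tnfrsf4 (206), Tnfrsf18 (161), and Icos (283). Tnfrsf9 (131) was the closest. In the main CD8 cluster Foxp3 stood at 2.35, Izumo1r at 27.5, and Tnfrsf9 at 98.2.

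**Figure D3:**
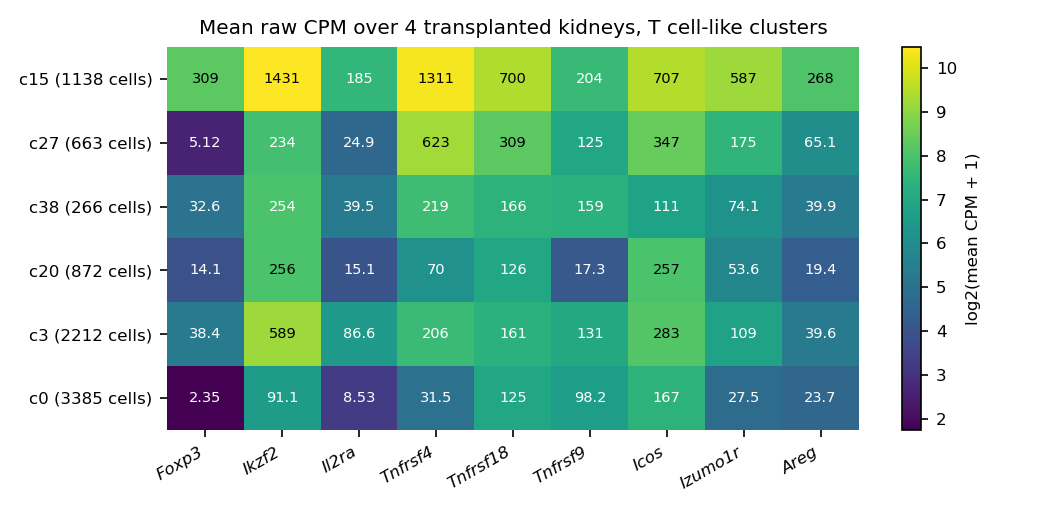
Mean raw CPM over the 4 transplanted kidneys of each gene in the 6 clusters of T cell-like cells, colored by log2(mean CPM + 1), with the number of cells in each cluster. The Foxp3-led cluster (c15) has the highest value of every gene, and Foxp3 and Il2ra drop most toward the cluster led by Tnfsf8 (c27).

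The 8 genes other than Foxp3 were then compared between CD4 cells with and without a Foxp3 UMI, within kidneys. Median depth was 3105, 2482, 3717, and 4036 UMIs in the cells with a Foxp3 UMI and 2011, 2454, 4711, and 5168.5 UMIs in those without. Of 5775 genes, 7.67% passed the FDR, and 3.9% with the higher level in Foxp3-positive cells. All 8 genes passed it and were higher in Foxp3-positive cells. A cell without a Foxp3 UMI can still express the gene, so these values compare cells in which it was and was not counted.

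Il2ra stood at 226, 299, 133, and 116 CPM in Foxp3-positive cells and at 42.3, 39.7, 37.1, and 55.3 in Foxp3-negative cells. It was higher in every kidney, with a log2 fold change of 2.1 (SE 0.23, FDR 1.70e-06). Ikzf2 stood at 1391, 1559, 1606, and 1162 CPM against 329, 671, 361, and 526 (log2 1.65, SE 0.15, FDR 9.63e-08). Izumo1r stood at 548, 549, 592, and 624 CPM against 285, 233, 283, and 318 (log2 1.05, SE 0.12, FDR 2.30e-06). In none of these 3 genes did any Foxp3-negative value reach a Foxp3-positive one.

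Tnfrsf18 stood at 623, 823, 730, and 709 CPM against 474, 461, 361, and 418 (log2 0.76, SE 0.12, FDR 1.67e-04). Tnfrsf4 stood at 1095, 1340, 1292, and 1150 CPM against 836, 979, 781, and 794 (log2 0.53, SE 0.10, FDR 0.00174). Icos stood at 752, 605, 785, and 495 CPM against 385, 546, 535, and 330 (log2 0.56, SE 0.13, FDR 0.00559). The estimated folds of these 3 receptor genes were below 2, whereas those of Il2ra, Ikzf2, and Izumo1r were above it. The 95% intervals of Izumo1r (log2 0.81 to 1.29) and Tnfrsf18 (log2 0.51 to 1.01) overlapped, so this limit does not part these 2 genes. For Tnfrsf18 and Tnfrsf4, too, no Foxp3-negative value reached a Foxp3-positive one. For Icos the levels of the kidneys overlapped although each kidney was higher in its Foxp3-positive cells.

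Tnfrsf9 and Areg were less even. Tnfrsf9 stood at 156, 343, 201, and 48.9 CPM against 124, 67.1, 62.2, and 89.7 (log2 1.13, SE 0.29, FDR 0.0159) and was lower in the Foxp3-positive cells of tolerized kidney 2. Areg stood at 166, 187, 178, and 177 CPM in Foxp3-positive cells, nearly the same in all 4 kidneys, against 81.4, 265, 38.4, and 59.8 in Foxp3-negative cells (log2 0.98, SE 0.28, FDR 0.0336). It was lower in the Foxp3-positive cells of rejecting kidney 2 alone. The call was kept in 10 of 14 alternatives for Tnfrsf9, in 6 of 14 for Areg, in 11 of 14 for Icos, and in 13 of 14 for Tnfrsf4. For Areg it rested on single kidneys: without tolerized kidney 1 the log2 fold change was 0.55, and without rejecting kidney 2 it was 1.61.

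**Figure D4:**
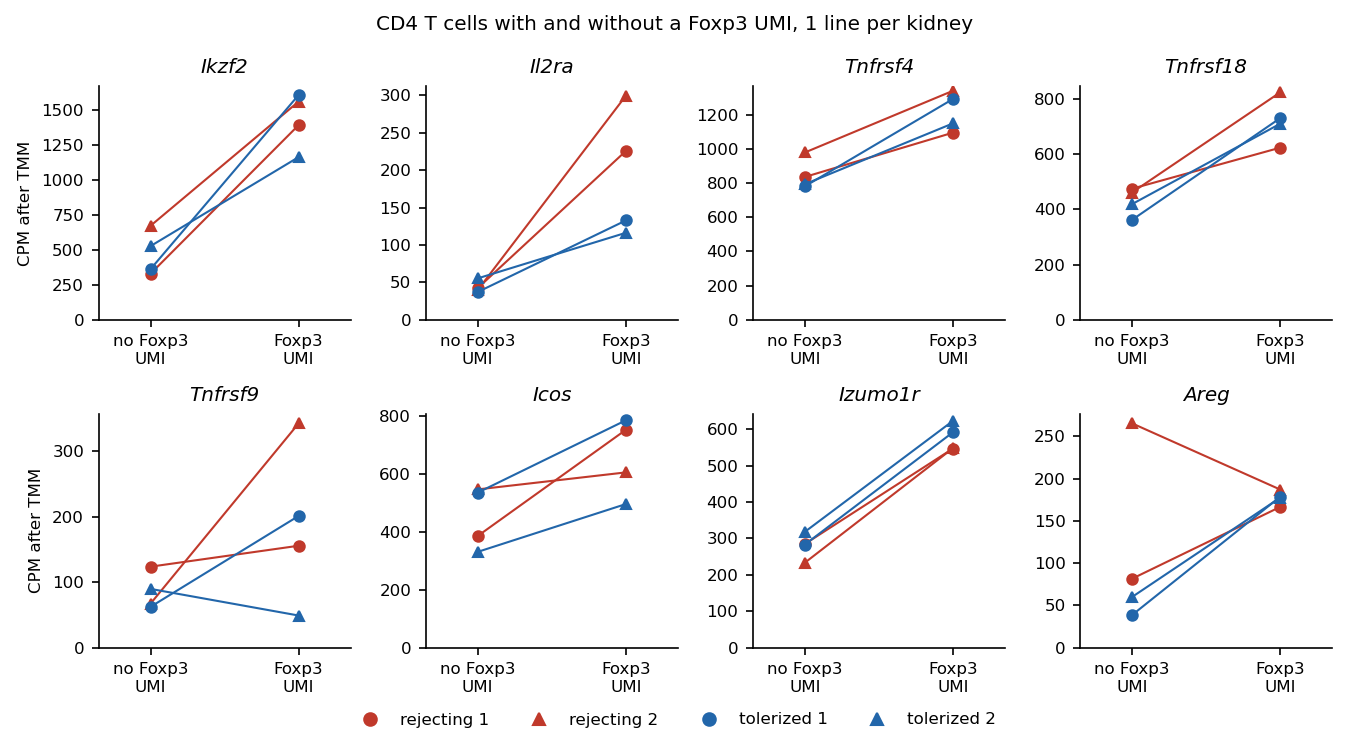
CPM after TMM of the 8 other genes in CD4 T cells without and with a Foxp3 UMI, with 1 line per kidney. Every line rises for Ikzf2, Il2ra, Tnfrsf4, Tnfrsf18, Icos, and Izumo1r, whereas Tnfrsf9 falls in tolerized kidney 2 and Areg in rejecting kidney 2.

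Per cell and at 1000 UMIs, CD4 cells with a Foxp3 UMI at full depth carried a mean of 2.98, 3.69, 3.30, and 2.59 of the 8 other genes, and those without carried 1.67, 2.05, 1.71, and 1.58. The values of the former all lay above those of the latter.

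The genes most like Foxp3 were those called higher in Foxp3-positive cells in all 4 kidneys with the largest fold changes. In order they were Neb (log2 2.68), Rapsn (2.65), Lrrc32 (2.37), Cdkn3 (2.34), Itgae (2.25), Matk (2.21), Ikzf4 (2.19), Slc2a3 (2.17), Arl5a (2.16), and Gzmb (2.11), out of 212 such genes. Gzmb was uneven, at 150, 798, 231, and 85.6 CPM in Foxp3-positive cells against 93.9, 64.1, 33.1, and 71.7, with rejecting kidney 2 far above the others. Rapsn (24.5 CPM in tolerized kidney 2) and Cdkn3 (18.7 CPM in rejecting kidney 2) rested on few UMIs there. Lrrc32 also belongs to the pathway lists, as do the integrin gene Itgae and Ikzf4, a relative of Ikzf2. Of 32 other regulatory T cell genes tested, 13 were higher and 3 lower, with a median log2 fold change of 0.50 against -0.0044 over all genes. The higher genes included Klrg1, a receptor of differentiated T cells (2.58), Fgl2 (1.61), the ectonucleotidase Entpd1 (1.31), the TNF receptor Tnfrsf1b (1.28), and Ctla4 (1.18). Klrg1 was uneven, at 108, 104, 204, and 0.0 CPM in a fit of the Foxp3-positive cells alone, so it was not counted in tolerized kidney 2. The lower genes were Cd83 (-1.40), the transcription factor Batf (-0.96), and Lag3 (-0.47).

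The pathways around Il2ra and the TNF receptors moved in part. Of 11 genes of IL-2 signalling tested, Socs2 (1.43), Cish (0.88), and Il2rb (0.74) were higher and Bcl2 (-1.95) lower. Socs2 and Cish are targets of STAT5. Of 12 genes of TNF receptor signalling, none was higher and the NF-kappaB subunit Rel (-0.63) was lower. Of 5 genes of naive T cells, Tcf7 (-2.63) was lower. The B cell markers detected in these cells, 2 to 4 of 8, summed to 404 to 1014 raw CPM in Foxp3-positive and 169 to 289 in Foxp3-negative CD4 cells, and their part in the differences was not tested.

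Rejecting and tolerized kidneys were compared first over all T cell-like cells, where a level depends both on the share of regulatory cells and on the RNA per cell, and these cannot be told apart. Foxp3 stood at 39.3 and 31.4 CPM in the rejecting and at 79.1 and 49.1 CPM in the tolerized kidneys. The log2 fold change was 0.86 (SE 0.27, 95% interval 0.25 to 1.48), with an unadjusted p of 0.0119 and an FDR of 0.564 in edgeR. Izumo1r stood at 101 and 102 CPM against 151 and 187 (log2 0.74, SE 0.21, unadjusted p 0.00790, FDR 0.538). In both genes the tolerized kidneys lay above the rejecting ones, and neither passed the FDR.

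Ikzf2 stood at 252 and 328 CPM in the rejecting and 414 and 372 in the tolerized kidneys (log2 0.44, FDR 0.675). Tnfrsf4 stood at 232 and 286 CPM against 362 and 339 (log2 0.44, FDR 0.669). Tnfrsf18 stood at 206 and 220 CPM against 271 and 240 (log2 0.26, FDR 0.773). For these genes too the groups did not overlap, which makes 5 of 9 genes with both tolerized kidneys higher, against 19.3% of 11459 genes tested. None of the 9 was lower without overlap, against 20.2% of all genes, and Il2ra, Tnfrsf9, Icos, and Areg overlapped.

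No member of the group passed the FDR in all T cell-like cells: edgeR called none of the 9, nor any of the 11459 genes (0.0%), with 2 of the 9 and 898 of all genes at an unadjusted p under 0.05, and DESeq2 called none of the 9 and 35 genes in all. Without the shallow cluster the log2 fold change was 0.63 for Foxp3 and 0.60 for Izumo1r. Leaving out tolerized kidney 1 took that of Foxp3 to 0.44, and leaving out tolerized kidney 2 took it to 1.16.

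Within CD4 cells the difference in Foxp3 was smaller. Foxp3 stood at 135 and 96.7 CPM in the rejecting and at 183 and 89.2 CPM in the tolerized kidneys, and the groups overlapped (log2 0.25, 95% interval -0.44 to 0.94, FDR 0.847). Without tolerized kidney 1 the log2 fold change was -0.37. Izumo1r stood at 330 and 288 CPM against 385 and 370 (log2 0.29, FDR 0.737). Izumo1r was the 1 gene with both tolerized kidneys higher, against 20.3% of 7427 genes.

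Areg showed the largest difference of the 9 in CD4 cells. It stood at 96.4 and 243 CPM in the rejecting and at 87.2 and 81.0 CPM in the tolerized kidneys (log2 -1.01, SE 0.35, 95% interval -1.77 to -0.25), with an unadjusted p of 0.0135 and an FDR of 0.439. The difference rested on rejecting kidney 2. Without that kidney the log2 fold change was -0.18, and without rejecting kidney 1 it was -1.53, with an FDR of 2.27e-05 that assumes the lone rejecting kidney to vary like the others. With no filter on low counts its FDR was 0.0271. Among CD4 cells split by a Foxp3 UMI, Areg stood at 265 CPM in the Foxp3-negative cells of rejecting kidney 2. The fit of the Foxp3-positive cells alone gave 185, 208, 199, and 197 CPM (log2 0.02, 95% interval -0.64 to 0.67). A cell without a Foxp3 UMI can still express the gene. In the Foxp3-led cluster Areg stood at 238, 462, 183, and 187 raw CPM, again with rejecting kidney 2 the highest.

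Il2ra (80.2 and 88.3 against 70.1 and 65.8 CPM), Tnfrsf9 (125 and 118 against 110 and 79.9), and Tnfrsf18 (487 and 518 against 482 and 465) were also lower in both tolerized kidneys. With Areg this makes 4 of 9, against 20.3% of all genes. Their log2 fold changes were -0.31, -0.35, and -0.08, and none had an unadjusted p under 0.05. Ikzf2, Tnfrsf4, and Icos overlapped, with log2 fold changes of 0.07, -0.07, and -0.04. EdgeR and DESeq2 called none of the 9 genes in CD4 cells, where edgeR called 4 of 7427 genes (0.0539%), Bdh2, Il21r, Rpl41, and Rps28, named here after their values were seen. The summed macrophage markers in CD4 cells were 703 and 263 raw CPM in rejecting and 211 and 80.6 in tolerized kidneys, with 7 to 10 of 10 detected, and their part in these values was not tested.

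**Figure D5:**
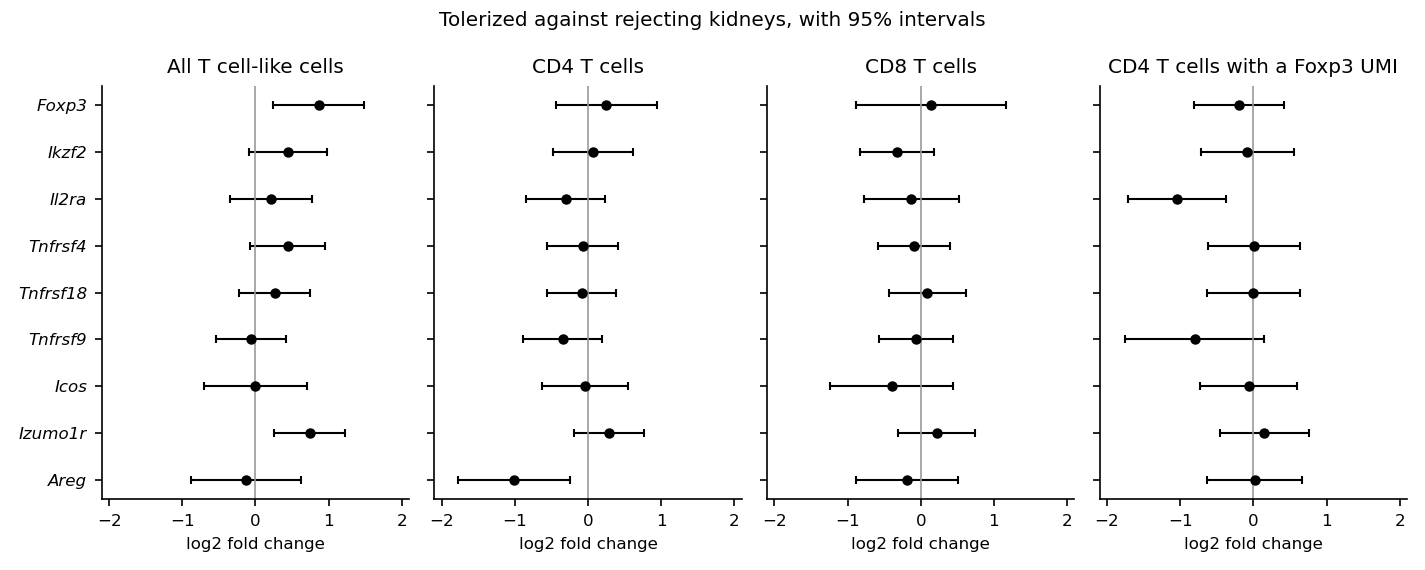
Log2 fold changes of tolerized against rejecting kidneys with 95% intervals from edgeR for the 9 genes, in all T cell-like cells, CD4 T cells, CD8 T cells, and CD4 T cells with a Foxp3 UMI. Intervals that leave out 0 are those of Foxp3 and Izumo1r in all T cell-like cells, of Areg in CD4 cells, and of Il2ra in Foxp3-positive cells, and none of these passed the FDR.

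In CD8 cells 7 of the 9 genes overlapped between the groups. Foxp3 stood at 9.84 and 3.89 CPM in the rejecting and at 7.03 and 8.23 in the tolerized kidneys (log2 0.14, 95% interval -0.88 to 1.16). Icos stood at 156 and 245 CPM against 213 and 90.2 (log2 -0.39, 95% interval -1.24 to 0.45), with tolerized kidney 2 the lowest. Ikzf2, at 141 and 149 against 124 and 107 CPM, and Tnfrsf4, at 67.7 and 70.0 against 63.1 and 66.2, were lower in both tolerized kidneys. That is 2 of 9, against 19.5% of 10709 genes, and none was higher in both, against 19.4%. EdgeR called 1 of these genes (0.00934%), the granzyme gene Gzma, likewise named after the fact, and none of the 9, and none of the 9 had an unadjusted p under 0.05. DESeq2 called none of the 9 either.

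CD4 cells with a Foxp3 UMI were then compared between the groups, with 53 and 43 cells in the rejecting and 92 and 39 in the tolerized kidneys. Most T cell-like cells with a Foxp3 UMI, which numbered 158, 154, 274, and 131, lay outside this set. Among them 70, 90, 145, and 74 had neither marker, and 27, 15, 23, and 13 were CD8 cells. Il2ra stood at 251 and 332 CPM in the rejecting and at 148 and 129 CPM in the tolerized kidneys. The log2 fold change was -1.04 (SE 0.32, 95% interval -1.71 to -0.37), the unadjusted p was 0.00424, and the FDR was 0.470. Both tolerized kidneys were lower, and the value stayed between -0.82 and -1.19 when each kidney was left out in turn, without passing the FDR in any of these. In the Foxp3-led cluster Il2ra stood at 234 and 231 raw CPM in the rejecting and at 184 and 91.1 in the tolerized kidneys. Both tolerized kidneys were lower there too, and this difference was not tested. Over all T cell-like cells with neither marker, not split by Foxp3, mean Il2ra was 110 (SD 22.4) raw CPM in the rejecting and 115 (SD 78.8) in the tolerized kidneys. In macrophage-like cells, the other holders of Il2ra, the groups overlapped, at 3.50 and 4.01 against 5.94 and 2.65 CPM (log2 0.27). Macrophage markers summed to 565 and 206 raw CPM in the rejecting and to 353 and 84.8 in the tolerized Foxp3-positive cells, with 5 to 9 of 10 detected, and the groups overlapped.

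Foxp3 itself, in the cells chosen for having it, stood at 693, 561, 575, and 516 CPM, and Izumo1r stood at 609, 609, 662, and 693. Tnfrsf9 stood at 173, 381, 225, and 54.4 CPM (log2 -0.80, 95% interval -1.76 to 0.15), and tolerized kidney 2 was the lowest of the 4. Without tolerized kidney 1 the log2 fold change of Tnfrsf9 was -2.29, and this value rests on tolerized kidney 2 as the lone tolerized kidney. For Ikzf2, Tnfrsf4, Tnfrsf18, Icos, and Areg the log2 fold changes lay between -0.08 and 0.02. Izumo1r alone was higher and Il2ra alone lower in both tolerized kidneys, 1 of 9 each, against 17.1% and 18.0% of 2964 genes. EdgeR called 3 of these genes (0.101%), Hist1h1b, Hist1h2ap, and Rps28, again named after the fact, and none of the 9, and DESeq2 called none of the 9 either.

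Outside T cells few of the genes were high enough to test. In NK-like cells Ikzf2 stood at 41.5 and 51.1 CPM in the rejecting and at 81.0 and 63.1 in the tolerized kidneys (log2 0.62, FDR 0.802). It was 1 of 4 genes tested there with both tolerized kidneys higher, against 18.4% of 4857 genes, and none was lower in both, against 18.6%. Tnfrsf18, at 145 and 137 against 144 and 148 CPM, overlapped (log2 0.05), as did Tnfrsf9 (log2 0.57) and Icos (log2 0.20). In conventional DC-like cells Tnfrsf18 stood at 50.6 and 53.8 CPM against 69.1 and 56.8 (log2 0.27) and Tnfrsf4 at 37.99 and 39.2 against 43.0 and 38.5 (log2 0.08). Of 4 genes tested there, Tnfrsf18 was higher and Ikzf2 lower without overlap, against 16.8% and 17.3% of 7703 genes. Markers of T cells, 8 to 11 of 11 detected, summed to 157 and 96.8 raw CPM in the rejecting and 14.9 and 15.7 in the tolerized conventional DC-like cells, and Cd3g was among the genes called lower there. Macrophage markers, all 10 detected, summed to 950.2 and 761 against 340.2 and 256 raw CPM in these cells and, with 6 to 10 detected, to 1356 and 484 against 160.4 and 64.7 in NK-like cells. Their part in the values of Ikzf2 and Tnfrsf18 was not tested. Of 7 genes tested in macrophage-like cells, Ikzf2 alone was lower without overlap (log2 -0.08), against 17.4% of 11633 genes, and none was higher, against 18.2%. In B cell-like cells Tnfrsf18 was the only gene tested and overlapped (log2 -0.04), where 17.8% of 7079 genes were higher and 17.7% lower without overlap. EdgeR and DESeq2 called none of the genes in these 4 classes, and none had an unadjusted p under 0.05. The share of all genes that edgeR called was 0.124% in NK-like cells, 0.0779% in conventional DC-like cells, and 0.0% in macrophage-like and B cell-like cells.

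Of the genes on the pathway lists, edgeR called none between rejecting and tolerized kidneys in any of these 8 classes of cells. In all T cell-like cells the lowest unadjusted p values were those of Itgae (log2 -1.08, FDR 0.450), the inhibitory receptor gene Tigit (-1.27), and the transcription factor gene Maf (0.84). In Foxp3-positive CD4 cells it was that of Itgb8, an integrin subunit that activates TGF-beta (-1.36, FDR 0.470). Whether the change from rejecting to tolerized kidneys differed between CD4 and CD8 cells was also tested. EdgeR called 21 of 9825 genes (0.214%) in this test and none of the 9. DESeq2 called none of the 9 and 0 of all genes, with 72 at an unadjusted p under 0.05. Areg came nearest, with an interaction of -0.80 on the log2 scale (SE 0.24, unadjusted p 7.51e-04, FDR 0.159 in edgeR). This SE rests on a variance pooled over genes and does not measure the spread of Areg between the 2 kidneys of a group.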

How the data were processed

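The 6 libraries came from 1 kidney each. The authors deposited raw UMI counts per gene and barcode, made with Cell Ranger on mm10 and not normalized. Per the file headers, version 3.0.1 made the transplanted matrices, and the naive matrices listed other genes. Barcodes were dropped below 500 UMIs or 250 genes or above 50% mitochondrial UMIs. Scrublet in scanpy 1.11.5 scored doublets per kidney, and 0.8% per 1000 barcodes, taken from the top of the scores, were removed. Clusters (leidenalg 0.10.2, resolution 1.5, 2500 variable genes without the 9 genes, the pathway lists, Cd4, Cd8a, and Cd8b1) were named from at least 3 markers with the ending "-like". Strand and antisense genes were not examined.

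For each class, UMIs were added up within a kidney. EdgeR 4.0.16 (R 4.3.3) removed low genes (filterByExpr), scaled libraries (TMM), and gave quasi-likelihood tests, called at an FDR of 0.05. CD4 and CD8 cells, and Foxp3-positive and Foxp3-negative CD4 cells, were compared with a term for the kidney. Shares were compared by exact permutation. In simulated counts with 200 changed genes, 92.0% of 4-fold and 31.3% of 2-fold changes were called between rejecting and tolerized CD4 cells, over 7171 genes. The calls were 92 of 100 4-fold, 31 of 99 2-fold, and 14 of 6972 unchanged genes. False calls were thus a larger part of all calls than the FDR of 0.05.

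Named genes are the 9 genes, pathway genes past the FDR or given by role, and the 10 genes most like Foxp3. The genes, lists, and tests were chosen with earlier results of these data known. The alternatives were DESeq2 1.42.0, its size factors in edgeR, no filter, a replicate block (or none), doublets kept, limits of 1000 UMIs or 20% mitochondrial UMIs, T cells by UMIs of Cd3d, Cd3e, Cd3g, and Trac, thinning, T cells without Cd8a and Cd8b1, and each kidney left out. Leaving out the shallow cluster was added after the data were seen. Flow cytometry and other experiments of the study were not analysed here.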

Additional observations from a re-analysis of the deposited data

Results flagged for a closer look

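None of the 9 genes passed the FDR for a difference between CD4 and CD8 T cells in the change from rejecting to tolerized kidneys. In edgeR's quasi-likelihood test of that difference, with Benjamini-Hochberg adjustment, 4 genes of the lists around them passed it. DESeq2 called none of the 4, and none was called when T cells were chosen by UMIs of Cd3d, Cd3e, Cd3g, and Trac. Within CD4 or CD8 cells alone, none of the 4 passed the FDR. The SE and FDR of the test of that difference rest on a variance pooled over genes. They do not measure how far each gene spread between the 2 kidneys of a group, which for Il10 and Il7r in CD4 cells was wide.

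Il10 stood at 58.7, 189, 130, and 61.4 CPM in CD4 cells and at 2.20, 2.72, 9.5, and 21.4 in CD8 cells, so that only the CD8 values were apart between the groups (difference of log2 fold changes -2.77, SE 0.34, FDR 6.34e-12). Maf, a transcription factor gene, stood at 297, 493, 487, and 363 CPM in CD4 cells and at 29.0, 21.6, 47.3, and 62.7 in CD8 cells, again with only the CD8 values apart (-0.95, SE 0.21, FDR 0.00502). Il7r, the interleukin-7 receptor gene, stood at 108, 269, 325, and 187 CPM in CD4 cells, where the groups overlapped, and at 168, 213, 110, and 123 in CD8 cells, where both tolerized kidneys were lower (1.23, SE 0.20, FDR 1.71e-06). Klf2, a transcription factor gene of recirculating T cells, stood at 91.3, 79.8, 150, and 202 CPM in CD4 cells, where both tolerized kidneys were higher, and at 119, 85.8, 90.4, and 142 in CD8 cells, where they overlapped (0.87, SE 0.21, FDR 0.0248).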

How the results depend on the processing

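Over 144 results for single genes and 1985 alternative values, 1782 kept their direction and side of the FDR, 138 lost a call, 3 gained one, and 62 changed sign. The cause of these changes was not tested. With 2 kidneys per group, 31.3% of simulated 2-fold changes were called in CD4 cells. Smaller changes were not simulated, and a gene that was not called may still differ. The paper marks its kidney samples as coming from 2 experiments, and the sample labels do not tie a kidney to an experiment. The main fits between rejecting and tolerized kidneys held no term for it. Replicate numbers are shared by the groups. Across genes, the difference between kidneys 1 and 2 of the rejecting group was set against that of the tolerized group. The correlation was weak and negative, at -0.21 in all T cell-like, -0.05 in CD4, and -0.14 in CD8 cells. With 1 such difference per group, this cannot decide whether same-numbered kidneys share a batch, and other classes were not examined. Leaving out a kidney left 1 against 2, with the lone kidney assumed to vary like the others.

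In the counts of genes called between rejecting and tolerized kidneys, CD4 cells went from 4 to 24 (DESeq2), 143 (no filter), 0 (replicate block), 13 (at most 20% mitochondrial UMIs), 18 (T cells by Cd3 and Trac UMIs), 1 (thinned), 14 (without the shallow cluster), and 0 (T cells without Cd8a and Cd8b1), with 41 to 240 when 1 kidney was left out. CD8 cells went from 1 to 31 (DESeq2) and to 0 with no filter, the replicate block, doublets kept, at most 20% mitochondrial UMIs, T cells by Cd3 and Trac UMIs, thinning, or no shallow cluster, with 79 to 274 without 1 kidney. All T cell-like cells went from 0 to 35 (DESeq2) and 121 (no filter), with 0 to 156 without 1 kidney. Foxp3-positive CD4 cells went from 3 to 5 (DESeq2), 25 (no filter), 5 (replicate block), 1 (at least 1000 UMIs), and 0 (at most 20% mitochondrial UMIs, Cd3 and Trac UMIs, thinned, no shallow cluster), with 8 to 39 without 1 kidney. NK-like cells went from 6 to 44 (no filter) and 39 (replicate block), with 14 to 209. Macrophage-like cells went from 0 to 32 (DESeq2) and 356 (no filter), with 0 throughout without 1 kidney. Conventional DC-like cells went from 6 to 33 (DESeq2), 0 (no filter), and 77 (replicate block), with 0 to 61. B cell-like cells went from 0 to 9 (DESeq2) and 118 (no filter), with 1 to 50. For CD4 against CD8 cells, 2110 became 1248 (DESeq2), 852 (no replicate block), 1182 (Cd3 and Trac UMIs), and 685 (thinned), with 1499 to 1911. For Foxp3-positive against Foxp3-negative cells, 443 became 187 (DESeq2), 161 (no replicate block), and 133 (thinned), with 203 to 440. For the interaction, 21 became 0 (DESeq2 and Cd3 and Trac UMIs) and 6 (thinned), with 11 to 23. The difference in the Foxp3 share of CD4 cells ran from 6.25 to 20.3 points without 1 kidney.

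These log2 fold changes of tolerized against rejecting kidneys changed sign, none of them called. In CD4 cells they were Tnfrsf4 (0.012 by Cd3 and Trac UMIs, 0.14 without Cd8a and Cd8b1), Tnfrsf18 (0.0033 with doublets, 0.023 by Cd3 and Trac UMIs, 0.028 thinned, 0.068 without Cd8a and Cd8b1), and Icos (0.049 and 0.098 in the first and last of these T cell choices). In CD8 cells they were Foxp3 (-0.10 without the shallow cluster), Tnfrsf4 (0.0011 thinned), and Tnfrsf9 (0.051 at 20% mitochondrial UMIs, 0.058 by Cd3 and Trac UMIs). In all T cell-like cells they were Tnfrsf9 (0.024 at 20% mitochondrial UMIs, 0.093 by Cd3 and Trac UMIs) and Icos (0.12 by Cd3 and Trac UMIs, 0.086 thinned). In Foxp3-positive cells they were Ikzf2 (0.033 by Cd3 and Trac UMIs), Tnfrsf4 (-0.21 thinned), Izumo1r (-0.27 thinned), and Tnfrsf18 (0.0051 with DESeq2, 0.0052 with its size factors, 0.019 with no filter, 0.014 with the replicate block, 0.032 with doublets, 0.018 at 1000 UMIs and at 20% mitochondrial UMIs, 0.058 by Cd3 and Trac UMIs, and 0.051 without the shallow cluster). Tnfrsf9 between CD4 and CD8 cells was 0.086 when thinned, and the interaction of Foxp3 was -0.012 with DESeq2 and -0.058 by Cd3 and Trac UMIs. Without 1 kidney the ranges that crossed 0 were, in CD4 cells, Foxp3 -0.37 to 0.67, Ikzf2 -0.21 to 0.41, Tnfrsf4 -0.20 to 0.070, and Icos -0.48 to 0.30. In CD8 cells they were Foxp3 -0.37 to 0.94, Il2ra -0.45 to 0.066, Tnfrsf18 -0.16 to 0.27, Tnfrsf9 -0.20 to 0.091, Icos -1.19 to 0.086, and Areg -0.59 to 0.37. In all T cell-like cells they were Il2ra -0.15 to 0.47, Tnfrsf9 -0.21 to 0.032, Icos -0.47 to 0.33, and Areg -0.57 to 0.50. In Foxp3-positive cells they were Foxp3 -0.32 to 0.013, Ikzf2 -0.32 to 0.16, Tnfrsf4 -0.081 to 0.18, Tnfrsf18 -0.14 to 0.23, Icos -0.43 to 0.24, and Areg -0.022 to 0.11, and the interaction of Foxp3 ran from -0.69 to 0.59.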
